A study of Mus musculus with 22 samples.

Results

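Klf12 and Klf5 are neighbouring genes of mouse chromosome 14 that encode Krüppel-like factors. In retinas of embryonic day 18.5, 6 of the 19034 deposited H3K27me3 peaks lay in their locus: 3 carried the gene names Klf12 or Klf5, and 3 more, named for other gene models, overlapped the window from 99.25 to 100.4 Mb (mm10). The locus was chosen with the difference between the genotypes at these peaks known. That difference is therefore given for the 6 peaks as a description. How many of them passed a threshold that was applied to all peaks is stated beside the share of all peaks that did, and neither is evidence about the locus.

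H3K27me3 is the trimethyl mark on lysine 27 of histone H3 that Polycomb repressive complex 2 (PRC2) lays down over repressed genes. Jarid2 encodes a DNA-binding partner of PRC2 that helps to bring it to its targets and stimulates its activity. Krüppel-like factors bind GC-rich and CACCC-type sequences through zinc fingers at their carboxyl end. Klf12 is known as a repressor that recruits the corepressor CtBP, and Klf5 mainly as an activator in proliferating epithelia and pluripotent cells.

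The mark was mapped by CUT&RUN, in which an antibody directs a nuclease to cut out the marked chromatin, in both retinas pooled from each of 10 C57BL/6 mice. Tamoxifen, 75 µg per gram of body weight, was given to the pregnant females at E10.5 to induce Cre. The 5 conditional knockout (cKO) animals were Jarid2 fl/fl; Rx-cre, with a tamoxifen-dependent Cre driven by Rx, a retinal regulator also named Rax. Of the 5 controls, replicate 1 was Jarid2 fl/+; Rx-cre, so it carried Cre and a floxed allele. Control replicates 2, 4 and 5 were Jarid2 fl/+ and replicate 3 was Jarid2 fl/fl, all without Cre, although the protocol text describes the controls of the first batch as Jarid2 fl/fl. Batch 1 held 2 controls and 2 cKO of 1 litter, of both sexes. Batch 2 held 3 and 3 male littermates with 2 technical duplicates each. The libraries held 1688368 to 2864080 reads in peaks per animal, and levels are CPM, reads scaled to a common total of reads in peaks, after TMM scaling. They are relative to the other peaks of a library, so a change shared by all peaks would not show. As a check of the tissue label, 6 genes were listed as likely to carry the mark: Hoxa9, Hoxb9, Hoxc9, Hoxd9, Gata4 and Tbx5. All 6 had H3K27me3 peaks, at 17.7 to 31.1 CPM per kb of peak in controls, before TMM scaling. Of 6 eye and retina genes 1 had a peak, Pax6 with 4.44 CPM per kb on the same scale. The first list alone cannot tell retina from other tissues. Loss of Jarid2 itself cannot be read from these peaks.

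The 6 peaks fell into a group at Klf5 and a group along Klf12, with nothing called over the 764 kb between them. The gene bodies of Klf5 (99298691 to 99313412, 14722 bp) and Klf12 (99866181 to 100285891, 419711 bp, read from the minus strand) are 552.768 kb apart in RefSeq (GRCm38.p6). At Klf5, a peak of 8101 bp (99294530 to 99302630) covered the promoter and reached 3940 bp into the gene. A peak of 1311 bp (99278410 to 99279720) lay 14.81 kb before it, in intergenic sequence assigned to the processed pseudogene Gm4412. Within Klf12 lay a wide peak of 7721 bp (100066620 to 100074340) and a narrow one of 1841 bp (100105580 to 100107420), 31.24 kb apart in the same intron, intron 3 of 7 of the annotated transcript. Their deposited distances to a start site were 75424 and 42344 bp. Measured from the RefSeq upstream end of Klf12, their centres lay at -215.4 and -179.4 kb (negative, towards Klf5). A peak of 5841 bp (100285700 to 100291540) spanned the upstream end of the RefSeq gene body, with 192 bp inside Klf12 and 5649 bp beyond. It also covered the start of the long noncoding RNA gene Gm41231, and its deposited annotation is the promoter of that gene. It is called the Gm41231 promoter below, though it lies over the RefSeq upstream end of Klf12 as well. The last, of 1471 bp (100375300 to 100376770), was intergenic and assigned to the snoRNA gene Gm26367.

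RefSeq (GRCm38.p6) promoter windows of 300 bases, from 250 before to 50 after a start, are shown for a start under one of the peaks, at the upstream end of the Klf12 gene body, and for an internal Klf12 start without a peak. The table holds 7 windows in the locus, none of them for Klf5, and 1 overlapped a peak, that of Gm41231 (chr14:100285473-100285772, plus strand, 73 bases inside the peak), and it lies antisense within the upstream end of the Klf12 gene body. The RefSeq upstream end of Klf12 lies under that same peak and has no window of its own. The window listed for Klf12 belongs to the internal start (chr14:100149747-100150046, minus strand), 42.33 kb from the nearest of the 6 peaks. Both are printed 5′ to 3′ with CpG dinucleotides in capitals.
Gm41231: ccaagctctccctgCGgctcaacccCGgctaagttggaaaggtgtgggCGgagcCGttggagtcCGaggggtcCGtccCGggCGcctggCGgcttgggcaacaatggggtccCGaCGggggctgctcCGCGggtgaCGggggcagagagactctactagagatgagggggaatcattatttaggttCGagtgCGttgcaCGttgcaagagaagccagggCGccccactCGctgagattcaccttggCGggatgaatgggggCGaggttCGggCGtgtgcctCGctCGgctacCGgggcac
Klf12: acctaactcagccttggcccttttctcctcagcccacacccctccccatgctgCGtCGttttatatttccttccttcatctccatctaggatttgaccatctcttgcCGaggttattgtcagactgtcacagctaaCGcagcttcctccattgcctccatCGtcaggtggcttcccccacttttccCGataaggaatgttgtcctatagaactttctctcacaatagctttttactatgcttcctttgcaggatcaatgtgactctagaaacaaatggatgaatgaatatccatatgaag
The Gm41231 window held 26 CpG and 65.3% GC, more CpG than 83.1% of the 32851 windows genome-wide. The Klf12 window held 6 CpG and 45.7% GC, more CpG than 43.6%. Windows that overlapped an H3K27me3 peak had a median of 13 CpG (4772 windows) and those that overlapped none a median of 6 (28079 windows). The letters CACCC, searched on both strands, occurred 1 time in each of the printed windows, and were present in 57.5% of all windows, 67.8% of those with a peak and 55.8% of those without.

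In control retinas the mark was densest at the Klf5 promoter. Per kb of peak it reached 18.3 CPM there, 14.2 CPM at the Gm41231 promoter, 10.1 CPM at the wide Klf12 intron peak, 5.10 CPM at the narrow one, 4.62 CPM at Gm4412 and 3.95 CPM at Gm26367. Ranks among all peaks were taken before TMM scaling. On that scale the first 3 were denser than 94.2%, 90.0% and 82.5% of all peaks. The last 3, with 5.03, 4.58 and 3.94 CPM per kb, lay near or below the median of 5.07 CPM per kb. The wide intron peak was also broad, since 15.5% of peaks were as wide or wider.

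**Figure D1:**
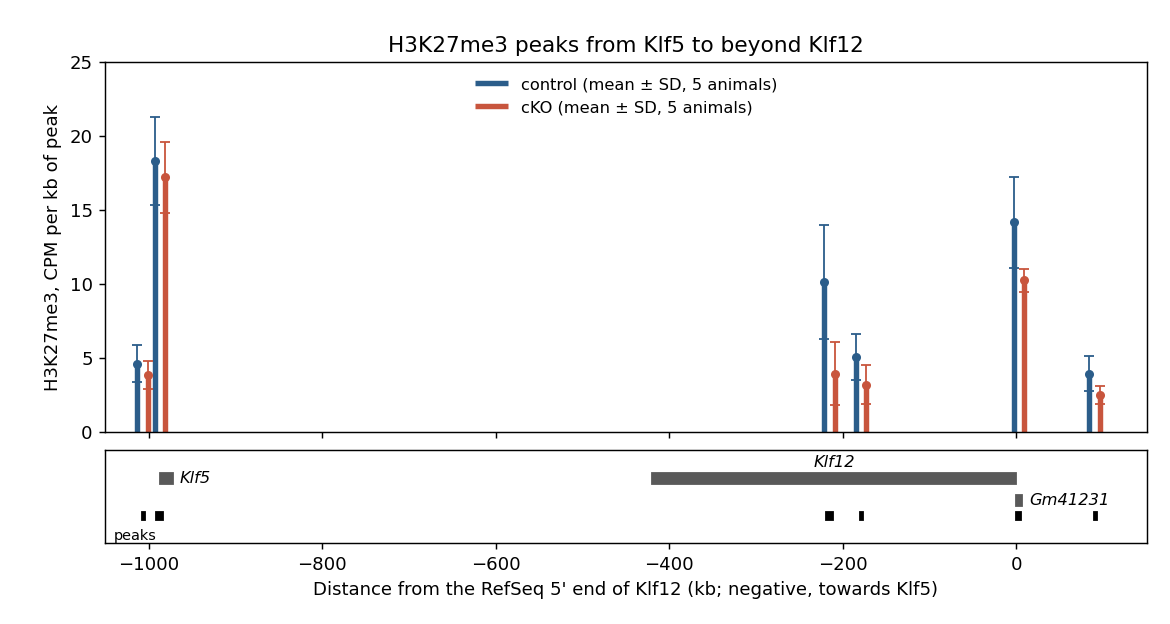
H3K27me3 along the locus. The horizontal axis is the distance in kb from the RefSeq upstream end of Klf12, negative towards Klf5, and the vertical axis is the mean level in CPM per kb of peak (error bars, SD over 5 animals), with control and cKO bars set side by side around each peak's centre. The lower strip shows gene bodies and peaks, and the control bar is above the cKO bar at all 6 peaks, with the widest gap at the wide Klf12 intron peak, 10.1 against 3.95 CPM per kb.

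The wide Klf12 intron peak showed the widest genotype difference of the 6. Control replicates 1 to 5 had 31.6, 64.9, 96.2, 102 and 97.0 CPM there, and cKO replicates 1 to 5 had 11.6, 13.9, 44.3, 39.8 and 42.9 CPM. Replicates 1 and 2 are batch 1 and were lower than batch 2 in both genotypes. The groups did not overlap within either batch, and over both batches only control replicate 1, the one with Cre, lay among the cKO values. Statements of overlap, here and below, describe these few animals and are not evidence about the locus. The share of all peaks that separate in this way is not given. Mean levels were 78.3 ± 29.9 CPM without and 30.5 ± 16.3 CPM with the knockout (SD over 5 animals). With batch in the model this is a log2 fold change of -1.37 ± 0.14 (SE), or 2.58-fold lower. It ranked 21 from the lowest of the 16307 peaks tested.

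The narrow intron peak held fewer reads, 171 over the 10 animals against 1256. Its controls had 5.43, 11.2, 9.33, 12.8 and 8.09 CPM and its cKO animals 4.23, 3.48, 7.58, 4.86 and 9.33 CPM. The groups overlapped in batch 2 but not in batch 1. The log2 fold change was -0.64 ± 0.23. Summed over both intron peaks, Klf12 had 36.5, 76.8, 106, 115 and 107 CPM in controls and 15.5, 17.1, 51.8, 44.9 and 53.0 CPM in cKO. The means, 88.3 ± 32.4 against 36.4 ± 18.7 CPM (SD), gave a log2 fold change of -1.30 ± 0.15.

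At the upstream end of Klf12, the Gm41231 promoter peak had 59.8, 73.0, 104, 96.5 and 80.9 CPM in controls and 55.5, 56.2, 60.6, 67.2 and 60.2 CPM in cKO. The cKO animals lay close together, and the genotypes did not overlap within either batch. The log2 fold change was -0.47 ± 0.093, from 82.9 ± 17.9 to 59.9 ± 4.66 CPM (SD, n = 5 each). When this peak, which overlaps the RefSeq body, was counted with the intron peaks, the Klf12 sum over 3 peaks had a log2 fold change of -0.83 ± 0.088. Farther upstream, the Gm26367 peak had 3.95, 4.37, 6.82, 5.84 and 8.09 CPM in controls and 2.64, 2.98, 3.59, 4.42 and 4.67 CPM in cKO, from 5 to 19 reads per animal. Its genotypes did not overlap within either batch, and the log2 fold change was -0.66 ± 0.22.

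The Klf5 promoter had the smallest genotype difference of the 6. Its peak, with 3136 reads the best covered of the 6, had 179, 166, 143, 135 and 119 CPM in controls and 159, 163, 128, 122 and 126 CPM in cKO. The batch 1 animals were the high ones in both genotypes, the opposite of Klf12. The log2 fold change was -0.092 ± 0.065, from 148.6 ± 24.1 to 139.5 ± 19.6 CPM (SD, n = 5 each). The Gm4412 peak before it had 4.44, 7.49, 6.46, 4.28 and 7.64 CPM in controls and 4.23, 4.47, 5.58, 3.98 and 7.00 CPM in cKO, a log2 fold change of -0.22 ± 0.23, and its genotypes overlapped in both batches.

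**Figure D2:**
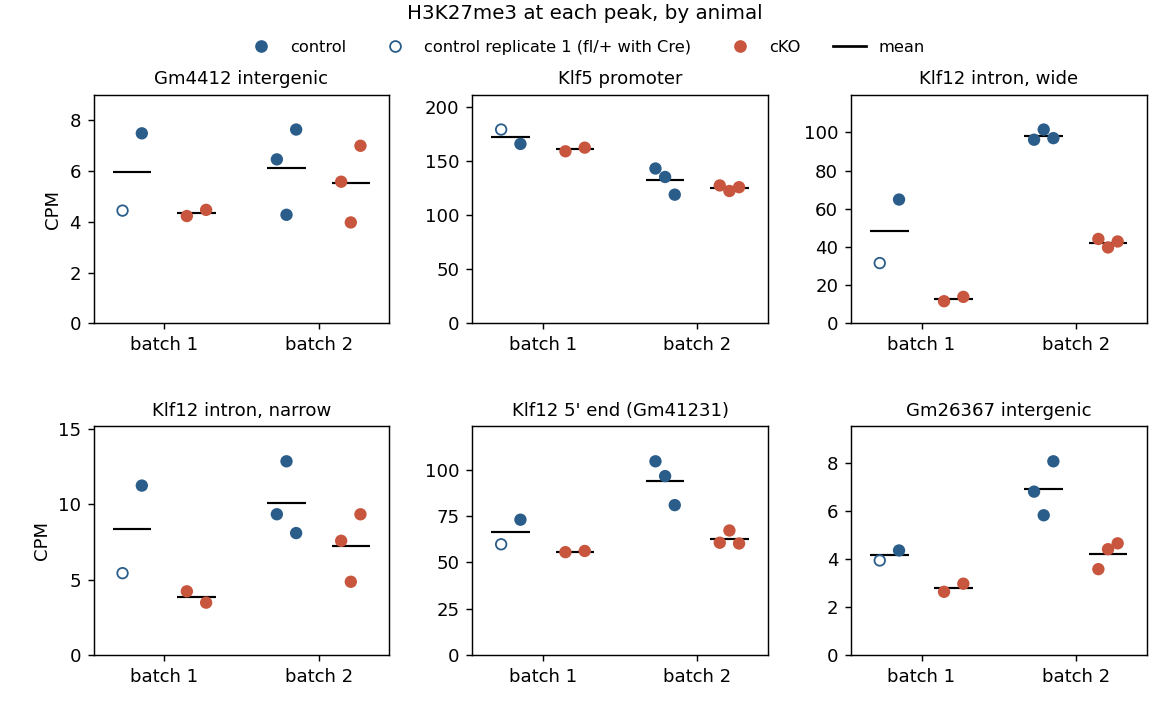
H3K27me3 in CPM (vertical axis, from 0) in each of 10 animals at the 6 peaks, split by batch on the horizontal axis. Points are animals, lines are means per genotype and batch, and the open point is the control with Cre, which at the wide Klf12 intron peak is at 31.6 CPM beside 64.9 CPM in the other batch 1 control.

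In the fit over all 16307 tested peaks, 7.38% were lower in cKO at an adjusted p under 0.05 (edgeR) and 1.46% were higher. Of the 6 peaks, 2 were among the lower ones, the wide Klf12 intron peak and the Gm41231 promoter, and 0 among the higher ones (also 0 at an unadjusted p under 0.05, by DESeq2 and by limma-voom). The locus was chosen on these values, so the counts describe the 6 peaks and test nothing. All 6 log2 fold changes were below 0, with a median of -0.55 against 0.022 over all tested peaks. Summed over the locus, the controls had 280, 329.7, 369, 358 and 327 CPM and the cKO animals 232, 239, 249, 244 and 253 CPM. These sums did not overlap between the genotypes, and their log2 fold change was -0.45 ± 0.060. The makeup of the locus differed with them: the Klf5 promoter held 45.6% of the locus' reads in controls and 57.2% in cKO, the wide Klf12 intron peak 23.2% and 12.4%, and the Gm41231 promoter 24.8% and 24.5%. In whole retinas, fewer cells with the mark and less of the mark per cell cannot be told apart. Without a batch term, as in batch 1 alone, the count of 2 became 0, with a log2 fold change of -1.35 at the wide intron peak without the term.

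Whether the genotype difference had the same size in the batches was tested, since the locus was not chosen on that. At the wide Klf12 intron peak the log2 fold change was -1.87 ± 0.26 in batch 1 (3.66-fold lower) and -1.21 ± 0.15 in batch 2 (2.32-fold lower). At the Gm41231 promoter the order was the other way, -0.24 ± 0.15 and -0.59 ± 0.11. The interaction (batch 2 minus batch 1) was 0.66 ± 0.31 at the intron peak and -0.35 ± 0.18 at Gm41231, and neither passed (edgeR, adjusted p = 1.00 for both; unadjusted p = 0.0478 and 0.0713). The other 4 peaks had interactions of -0.16 to 0.57. By edgeR 0 of the 6 passed (0 by DESeq2), beside 0.0123% of all tested peaks. At an unadjusted p under 0.05 there was 1 of the 6, beside 3.94% of all tested peaks (643). The estimate at the intron peak turned on single controls of batch 1: without control replicate 1 it was 1.11 (edgeR adjusted p = 0.105) and without control replicate 2 it was 0.089. For the Klf12 sum the interaction was 0.63 ± 0.32 and for the locus sum -0.13 ± 0.12 (edgeR adjusted p = 0.999 for both).

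**Figure D3:**
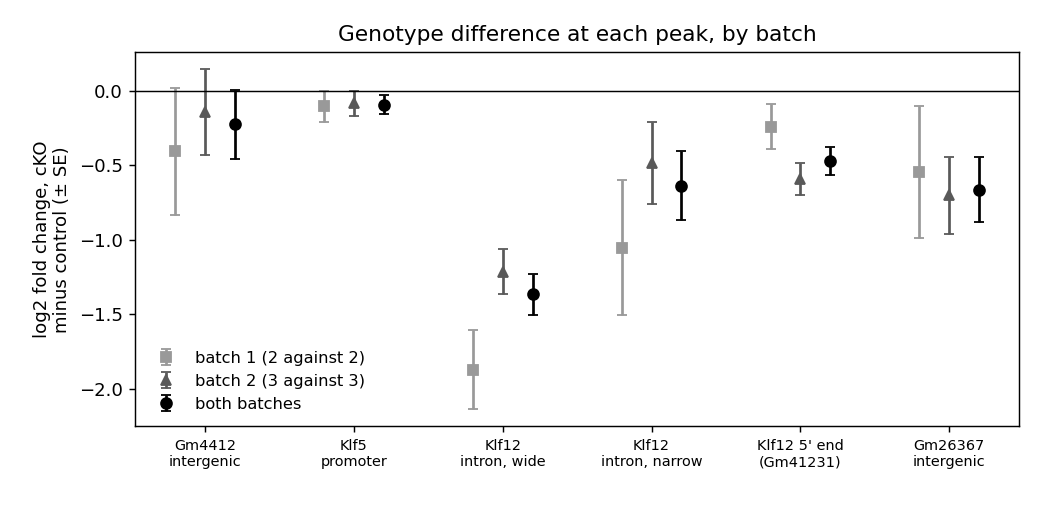
Genotype difference (vertical axis, log2 fold change of cKO minus control, error bars SE) at each of the 6 peaks, in batch 1, batch 2 and both. The wide Klf12 intron peak is the lowest in every fit, at -1.87, -1.21 and -1.37, and Klf5 has -0.10, -0.084 and -0.092.

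The level of the mark itself also differed between the batches, in control animals alone. The wide Klf12 intron peak was 2.09-fold higher in batch 2 (log2 difference 1.06 ± 0.18, edgeR adjusted p = 0.00114). The Gm41231 promoter was 1.43-fold higher (0.52 ± 0.13, edgeR adjusted p = 0.0244), and the Klf5 promoter was 1.30-fold lower (-0.38 ± 0.096, edgeR adjusted p = 0.0308). So 2 of the 6 were higher in batch 2, beside 1.64% of all tested peaks, and 1 was lower, beside 1.6%. The other 3 peaks had log2 differences of 0.067 to 0.72 and did not pass (edgeR adjusted p from 0.385 to 0.969). Control replicate 1 bears on these values. Without it the intron peak differed by 0.62 (edgeR adjusted p = 0.0160), and without control replicate 2 by 1.63 (edgeR adjusted p = 7.1e-07). It passed under all 15 alternatives run, the Gm41231 promoter under 10 (highest edgeR or DESeq2 adjusted p 0.323) and the Klf5 promoter under 5 (highest 0.358). Without control replicate 1 the Gm41231 promoter differed by 0.39 and the Klf5 promoter by -0.30, and neither passed. For the Klf12 sum the difference was 0.98 ± 0.19 (edgeR adjusted p = 0.00599), and 0.52 without control replicate 1 (adjusted p = 0.0592). Batch, litter, sex makeup and the control with Cre move together, and cannot be told apart.

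The control with Cre is a single animal, so its values are set beside the other batch 1 control without a test. At the wide Klf12 intron peak it had 31.6 CPM (64 reads) against 64.9 CPM (104 reads), 2.05-fold less, and at the narrow one 5.43 against 11.2 CPM, 2.07-fold less. The Gm41231 promoter had 59.8 against 73.0 CPM, the Klf5 promoter 179 against 166 CPM, Gm4412 4.44 against 7.49 CPM and Gm26367 3.95 against 4.37 CPM. Every peak but the Klf5 promoter was thus lower in this animal, the narrow intron peak on 11 against 18 reads and Gm4412 on 9 against 12. Across autosomal peaks, control replicate 1 lay below control replicate 2 at 94.3% of the 1184 peaks called lower in cKO and at 45.4% of the 14490 peaks not called. Calls were made with both animals in the fit. The 2 differ in sex and in Cre, and Cre could also cut the floxed Jarid2 allele of control replicate 1. The part of sex, of Cre or of a lost Jarid2 allele in these values was not tested and cannot be told apart. The batch 1 cKO animals, also 1 of each sex, had 11.6 (female) and 13.9 CPM (male) at the wide intron peak. Across the same autosomal peaks, the male cKO lay below the female at 38.7% of the 1184 called lower and at 48.0% of those not called. This is 1 animal of each sex, both cKO, so it cannot show what sex does in controls.

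The authors' deposited table gives a log2 fold change per peak without naming its contrast, and for this locus it should not be read as the genotype difference. A DESeq2 refit of batch 1 minus batch 2, beside genotype, on the 16 libraries matched the deposited values within 0.01 at 100% of the 19034 peaks. The refit of cKO minus control matched at 2.66%. In the authors' deposited table the wide Klf12 intron peak has -1.30, and the genotype refit has -1.35. At the Klf5 promoter the signs part: 0.356 in the authors' deposited table and -0.0994 in the genotype refit. The other peaks have -0.198 (Gm4412), -0.574 (narrow Klf12 intron peak), -0.360 (Gm41231) and -0.674 (Gm26367) in the authors' deposited table. The genotype refit gave -0.236, -0.637, -0.501 and -0.677 in that order. The test statistic in the authors' deposited table has the opposite sign to the fold change at all 19034 peaks.

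**Figure D4:**
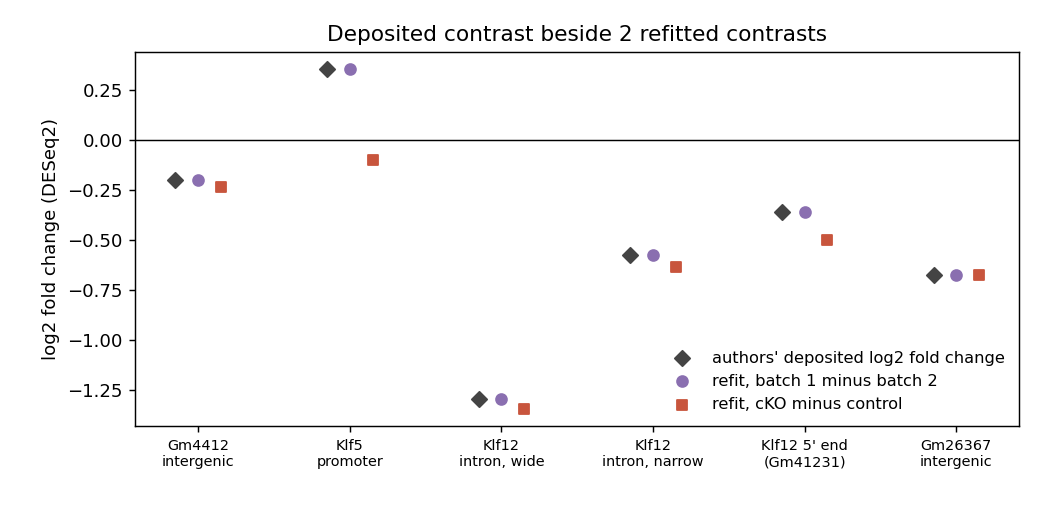
Log2 fold changes (vertical axis) at the 6 peaks: the authors' deposited values, a DESeq2 refit of batch 1 minus batch 2 and a DESeq2 refit of cKO minus control. Deposited and batch points coincide at every peak, and at Klf5 they sit at 0.356 while the genotype point sits at -0.0994.

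Beyond the locus the mark did not differ between the genotypes past the threshold in any of the neighbours listed. The nearest peak past Gm26367, 98.84 kb away in an exon of 6330576A10Rik (100475610 to 100481050), averaged 47.3 ± 4.31 CPM in controls against 47.2 ± 4.81 CPM in cKO (SD), and its log2 fold change was 0.0073 ± 0.092. On the other side the nearest was the Klhl1 promoter peak (96519500 to 96520330), 2758 kb away, with 3.81 ± 1.05 against 3.71 ± 1.65 CPM (SD) and a log2 fold change of -0.034 ± 0.29. Of 9 listed flanking genes, Dach1, Mzt1, Bora, Dis3 and Pibf1 had no peak assigned. Lmo7, an adaptor protein of cell junctions, had 213 ± 19.3 and 204 ± 16.2 CPM (SD, n = 5 each; edgeR adjusted p = 0.541). Commd6 had a log2 fold change of 0.30 ± 0.088 (edgeR adjusted p = 0.0536), Tbc1d4, a Rab GTPase-activating protein, of -0.014 ± 0.088 (0.960) and Uchl3, a ubiquitin hydrolase, of 0.056 ± 0.16 (0.880).

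Among the other Krüppel-like and Sp factors, which share the zinc fingers of Klf12 and Klf5, no gene passed in either direction. Of the 24 listed, 16 had a peak and were tested: 0 were lower and 0 higher in cKO (edgeR; also 0 by DESeq2), beside 8.29% and 1.48% of the 11324 genes tested. At an unadjusted p under 0.05, 1 of the 16 was lower and 4 were higher, beside 14.1% and 8.89% of all genes. Their log2 fold changes ran from -0.21 to 0.50 with a median of -0.025, against 0.015 over all genes, and 8 of the 16 were negative. Sp8, a regulator of limb and forebrain development, averaged 1014 ± 108 CPM in controls against 954 ± 53.3 CPM in cKO (SD; log2 fold change -0.086 ± 0.061, edgeR adjusted p = 0.444). Sp9, its close relative, had 699 ± 127 and 667 ± 60.3 CPM (SD, n = 5 each; edgeR adjusted p = 0.691), and Klf14 had 421 ± 34.4 and 399.9 ± 20.9 CPM (edgeR adjusted p = 0.483). Scaling to the total count moved the median of all genes from 0.015 to 0.072. It put 3 family genes past the threshold as higher: Klf9 (0.21), Klf13 (0.57) and Sp7 (0.21), by edgeR. The share of all genes called higher under that scaling is not given, so nothing is read from this count. Klf3, Klf6, Klf7, Klf16, Sp1, Sp3, Sp4 and Sp5 had no peak assigned.

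**Figure D5:**
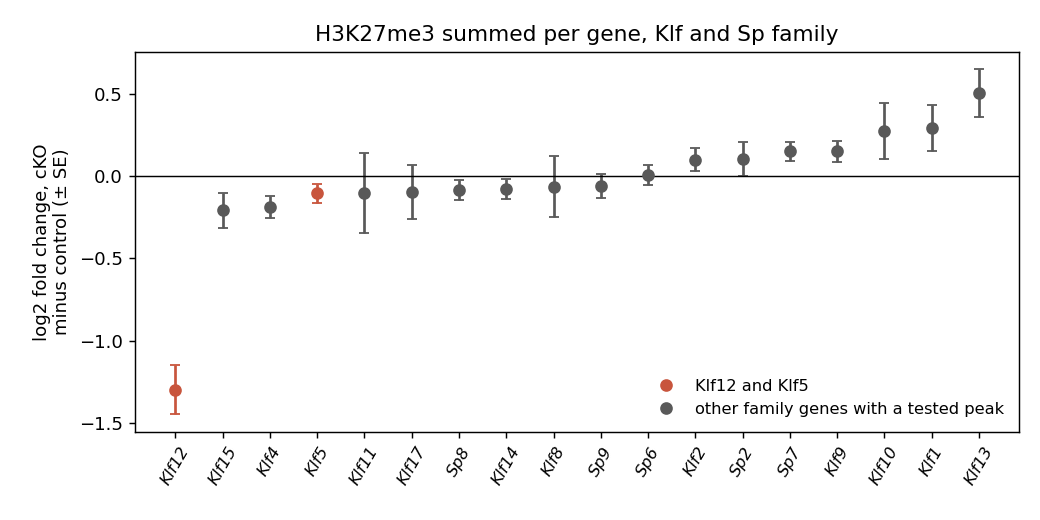
Genotype difference in H3K27me3 summed per gene (vertical axis, log2 fold change of cKO minus control, error bars SE) for Klf12, Klf5 and the 16 other family genes with a tested peak, in order of value. Klf12 is at -1.30 and the other 17 lie between -0.21 and 0.50.

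The profile of Klf12 over the 10 animals was compared with that of every other gene, as the root mean square (RMS) difference of log2 CPM centred on each gene's mean. Smaller values mean a more alike profile, and the median over 11322 genes was 0.987. The nearest was Gm22074 at 0.172, an intergenic peak on chromosome 3 (6880660 to 6893300). Gm22892 on chromosome 6 (0.197, a sum of 2 peaks, the first in an intron) and Gm24498 on chromosome 13 (0.207, in an intron) followed. Of protein-coding genes, the promoter peak of Pcdh7, a protocadherin, came next (chromosome 5, 57718620 to 57723160) at 0.209, with means of 72.3 CPM in controls and 31.3 CPM in cKO. Wwc2, a relative of the Hippo pathway regulator Kibra, followed at 0.215 (chromosome 8, intron, 47943470 to 47952000), with 104 and 53.3 CPM. The genes were picked for this likeness over the same animals, batches and scaling, so it is a description.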

How the data were processed

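H3K27me3 was measured by CUT&RUN in 16 libraries from 10 animals (6 IgG libraries were not analysed here). The authors deposited raw counts per peak for 1 set of 19034 peaks, with, per the file headers, a mean normalised signal, a log2 fold change with its error, a test score and p-values. Novoalign 4.02.02, SAMtools, MACS2, DESeq2 1.38.1 and mm10 are named, without roles, in the submitters' processing notes; the sources used here do not give how reads were counted, how duplicate reads were treated or any spike-in. The deposited peak annotation was used as it stands.

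The 2 libraries of an animal agreed within counting noise (chi-square over its degrees of freedom, 0.866 to 0.956 in 6 pairs, against 1.04 to 2.39 between animals) and were summed, so n counts animals. Low peaks were removed with filterByExpr (2727 of 19034), and TMM scaling and edgeR 4.0.16 quasi-likelihood tests (R 4.3.3) were run with batch as a term over all 16307 peaks, or over gene sums. P-values were adjusted by Benjamini-Hochberg over the whole table, with a threshold of 0.05. The interaction and the batch difference in controls came from a fit with batch, genotype and their interaction. DESeq2 1.42.0 and limma 3.58.1 (voom) were alternatives. The code was tested on simulated data.

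Members, gene lists and tests were chosen with earlier results of these data known. Named in the text are all 6 peaks, the 5 genes most like Klf12 in profile, and, of family and flanking genes, those past the threshold and the 3 with most reads. The remaining flanking genes and those of the family past the threshold under another scaling were named after their values were seen. The alternatives were other scalings, no filter, no batch term, sex as a term, a replicate block, each batch or duplicate alone, other tools and thresholds, and leaving out each animal. Promoter windows came from RefSeq.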

Additional observations from a re-analysis of the deposited data

How the results depend on the processing

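The genotype values of the locus are those it was chosen on, so their ranges here describe the processing and support nothing. The log2 fold change of the Klf12 sum was -1.30, -1.75 in batch 1 alone and -0.83 over the 3 peaks that overlap the RefSeq body, and that of the locus sum was -0.45, or -0.36 in batch 1 alone. Leaving out 1 animal at a time gave -1.36 to -1.14 for the Klf12 sum, -0.14 to -0.071 for the Klf5 sum and -0.49 to -0.42 for the locus sum, with 2 of the 6 peaks past the threshold as lower and 0 as higher in each. The family counts, which did not choose the locus, were 0 in these fits. That count of lower peaks was 0 with no batch term and 0 in batch 1 alone, where only 4 animals entered. Scaling to the total count put 3 family genes past the threshold as higher, against 0, and the batch difference of the locus sum in controls at 0.29 (edgeR adjusted p = 0.0209) against 0.21 (0.198). Without 1 animal, the interaction ran from 0.013 to 1.07 for the Klf12 sum and from -0.26 to -0.046 for the locus sum, and the batch difference in controls from 0.52 to 1.57 and from 0.10 to 0.32. The lowest for the Klf12 sum, without control replicate 1, no longer passed (edgeR adjusted p = 0.0592). The cause of these shifts was not tested. With the replicate number as a block the Klf12 sum had a log2 fold change of -1.31, the locus sum -0.45 and the Klf5 sum -0.10. The counts in that fit were 2 peaks lower, 0 higher and 0 family genes. For none of the alternative fits of this section is the share of all peaks or genes called given, so nothing is read from their counts. Deviations of animals of the same number had correlations of -0.444 for both pairs of batch 1, and 0.094, 0.014 and 0.036 in batch 2. With 2 animals per genotype, those of batch 1 are mirror images, so both pairs give a single value. Pairs of different number in batch 2 had -0.066 to 0.026. These values cannot decide whether the numbers mark pairs, and the main fits use them as names. Depth limits the 3 small peaks, at 5 to 33 reads per animal: technical duplicates differed by up to 3.67-fold at Gm4412, 2.67-fold at the narrow Klf12 peak and 2-fold at Gm26367, against 1.11-fold at the wide Klf12 peak.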
